A study of Mus musculus with 6 samples.

Results

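The 10 genes examined here encode ligands and receptors of the vascular endothelial growth factor (VEGF) and angiopoietin systems. They were chosen by symbol, as Vegfa, Vegfc, Pgf, Kdr, Flt1, Flt4, Nrp1, Angpt1, Angpt2 and Tek, and each matched 1 row among the 33696 genes of the deposited matrices. Their counts of unique molecular identifiers (UMIs, 1 per captured RNA molecule) were followed in single nuclei of the left ventricle from 6 libraries of male mice aged 12 weeks, with 2 libraries in each of 3 groups. WT-CD mice were wild type littermates on control diet. R403Q-CD mice carried 1 mutated copy of the cardiac myosin heavy chain gene Myh6 (Myh6+/R404Q in the labels, named R403Q) and ate the same diet. R403Q-EMPA mice carried the same allele and ate that diet with empagliflozin (EMPA), an inhibitor of the sodium-glucose cotransporter 2, at 0.15 mg per g of diet, which the labels equate with about 15 mg/kg body weight. Feeding of the diets started at an age of 9 to 10 weeks. The labels also name 16 weeks of feeding, which conflicts with an age of 12 weeks. The hearts are taken here as coming after about 2 weeks of treatment, from the ages and the paper's protocol for RNA sequencing. This length was inferred and is not stated for these libraries. The myosin allele is a model of hypertrophic cardiomyopathy in all R403Q mice, and a substitution of this kind cannot be read from counts per gene, so the genotypes were not checked here. The labels do not say whether each library came from 1 animal, so the p-values measure the spread between these libraries.

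VEGF ligands drive the growth and permeability of vessels. VEGF-A (Vegfa) signals in blood endothelium through VEGF receptor 2 (Kdr), while VEGF receptor 1 (Flt1) binds VEGF-A and placental growth factor (Pgf) tightly and signals weakly, so that it can act as a decoy. VEGF-C (Vegfc) acts on VEGF receptor 3 (Flt4), the receptor of lymphatic endothelium, and neuropilin 1 (Nrp1) is a co-receptor for VEGF-A and a receptor for semaphorins. Angiopoietin 1 (Angpt1), made by cells around vessels, activates the endothelial receptor Tie2 (Tek) and keeps vessels quiet and tight, and angiopoietin 2 (Angpt2), made by endothelium, often opposes it.

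The promoters of the 4 endothelial receptor genes and of Nrp1 are shown because these genes separated the endothelial nuclei from each other and because Flt1, Flt4 and Nrp1 passed the test between groups outside endothelium. Each window covers 250 bases before and 50 bases after the start of the gene, 5′ to 3′ on the strand of the gene, from RefSeq on build GRCm38.p6, which is not the build of the counts. Capitals mark GGAA on either strand (TTCC on the other), the core bound by ETS factors, a family with many members in endothelium. No printed window held ACGTG, the core of the hypoxia response element, on either strand.
Kdr (chr5:75978406-75978705, minus strand): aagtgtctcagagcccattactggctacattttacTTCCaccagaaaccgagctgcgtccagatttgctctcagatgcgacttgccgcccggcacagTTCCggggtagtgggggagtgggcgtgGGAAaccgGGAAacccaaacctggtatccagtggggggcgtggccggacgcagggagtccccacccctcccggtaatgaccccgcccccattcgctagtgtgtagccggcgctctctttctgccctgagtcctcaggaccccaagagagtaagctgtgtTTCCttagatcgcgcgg
Flt1 (chr5:147725962-147726261, minus strand): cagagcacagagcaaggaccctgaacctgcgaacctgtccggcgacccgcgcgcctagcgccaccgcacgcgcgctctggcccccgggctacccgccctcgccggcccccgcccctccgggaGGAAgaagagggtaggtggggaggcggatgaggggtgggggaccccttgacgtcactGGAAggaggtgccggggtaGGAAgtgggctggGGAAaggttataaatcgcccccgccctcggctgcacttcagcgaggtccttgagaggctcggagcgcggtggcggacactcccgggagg
Flt4 (chr11:49609429-49609728, plus strand): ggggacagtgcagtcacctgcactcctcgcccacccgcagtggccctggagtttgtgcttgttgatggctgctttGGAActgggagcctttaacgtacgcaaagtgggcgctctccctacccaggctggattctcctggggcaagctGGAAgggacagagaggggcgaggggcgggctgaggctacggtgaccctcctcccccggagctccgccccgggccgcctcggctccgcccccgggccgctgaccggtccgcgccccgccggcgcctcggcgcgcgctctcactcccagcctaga
Tek (chr4:94739039-94739338, plus strand): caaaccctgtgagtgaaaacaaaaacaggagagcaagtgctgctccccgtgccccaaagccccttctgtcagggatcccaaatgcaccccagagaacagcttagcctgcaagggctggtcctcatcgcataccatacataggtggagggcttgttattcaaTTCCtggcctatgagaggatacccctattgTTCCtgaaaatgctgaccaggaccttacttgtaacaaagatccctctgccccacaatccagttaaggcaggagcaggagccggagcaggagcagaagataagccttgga
Nrp1 (chr8:128358823-128359122, plus strand): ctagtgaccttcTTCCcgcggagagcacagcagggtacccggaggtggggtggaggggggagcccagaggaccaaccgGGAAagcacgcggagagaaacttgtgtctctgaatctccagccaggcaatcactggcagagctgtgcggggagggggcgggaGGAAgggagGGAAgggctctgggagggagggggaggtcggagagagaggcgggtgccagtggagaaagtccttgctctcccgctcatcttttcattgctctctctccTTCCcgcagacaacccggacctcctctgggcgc

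GGAA occurred 5 times in the Kdr and Nrp1 windows, 4 times in Flt1 and 2 times in Flt4 and Tek. Among 32851 RefSeq promoters of this length 96.0% held it at least once, 84.6% at least 2 times, 46.3% at least 4 times and 28.6% at least 5 times, with a median of 3. ACGTG was held by 19.6% of these promoters, and among the members it occurred once, in 1 of 2 windows of Vegfa. Such matches describe letters and not bound sites. No window was in the table for Angpt1 or Angpt2.

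The libraries held 31787308 to 45397128 UMIs, and 46005 nuclei of 69249 barcodes were kept, at a median of 2663 to 4065 UMIs per nucleus and library. Any 2 libraries shared 23 to 56 barcodes. Nuclei were clustered without the members and without the 28 genes of a pathway list, and the 19 clusters were named by fixed markers, as X-like because cell types were not labelled. The 10 classes with at least 20 nuclei in every library are described. Among the classes, each led in the summed level of its own markers, for example 66776 to 80814 UMIs per 1000000 UMIs of the class and library (CPM) for cardiomyocyte markers in cardiomyocyte-like nuclei. Small classes also held other markers at high levels. In epicardial-like nuclei of R403Q-EMPA replicate 2 fibroblast markers summed to 7440 CPM and epicardial markers to 6565. In smooth muscle-like nuclei cardiomyocyte markers summed to 9210 to 11580 CPM and smooth muscle markers to 11985 to 17099. Nuclei numbered 6980 cardiomyocyte-like, 12440 endothelial-like, 3236 endocardial-like, 1116 lymphatic-like, 14145 fibroblast-like, 4671 pericyte-like and 2402 myeloid-like. The smooth muscle-like, epicardial-like and lymphoid-like classes had 27 to 107 nuclei per library, so that 1 UMI there was worth several CPM, and they are given as levels with no test. The epicardial fat named in the labels formed no cluster of its own.

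The groups filled the clusters of some classes unequally, which bears on every class value below. Cluster 8 of the cardiomyocyte-like class, led by Ryr3 and Nppb, held 5.66% and 5.57% of that class in WT-CD, 13.8% and 23.7% for R403Q-CD and 58.7% and 48.0% for R403Q-EMPA. Cluster 10 of the fibroblast-like class, led by Ltbp2, Cilp and Thbs4, held 34.0% of it in R403Q-EMPA replicate 1 and 3.06% to 8.70% elsewhere. Cluster 9 of the endothelial-like class, led by the arterial genes Sema3g, Gja5 and Sox17, held 29.9% in R403Q-EMPA replicate 1 and 8.39% to 14.0% elsewhere. R403Q-EMPA replicate 1 stood apart in cell composition. The limit on mitochondrial UMIs also took unequal numbers of cardiomyocyte-like nuclei, since 1315 and 1392 were found without it in WT-CD, 3079 and 3383 for R403Q-CD and 4475 and 2860 for R403Q-EMPA, against 1131 and 718, 976 and 988, and 1556 and 1611 with it. Values within single clusters are given beside the results called in these classes and beside some others.

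Among the ligands, Vegfa was a cardiomyocyte transcript. Its level was 481 ± 73.2 CPM (mean ± SD, n = 6 libraries) in cardiomyocyte-like nuclei, 49.7 ± 4.10 in fibroblast-like nuclei and 4.41 to 39.4 in every library of all other classes. The ranges of the first and second class did not overlap, and cardiomyocyte-like nuclei held 86.8% ± 5.67 of all Vegfa UMIs. Levels here are relative to the UMIs of a class and are compared between classes for 1 gene, never between genes, because counts from the end of a transcript were not scaled by length.

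Vegfc was highest in endothelial-like nuclei, at 694 ± 190 CPM, where 71.8% ± 5.12 of its UMIs lay. Fibroblast-like nuclei followed at 133 ± 16.9 CPM and endocardial-like nuclei at 116 ± 63.9, with ranges that overlapped. Lymphatic-like nuclei, which carry the receptor of VEGF-C, had 0 to 20.9 CPM, and cardiomyocyte-like nuclei 4.17 to 8.64. The ligand and its main receptor were thus highest in different endothelial classes.

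Pgf was spread over several classes. It stood at 93.8 ± 30.3 CPM in lymphatic-like, 76.1 ± 15.6 in fibroblast-like and 40.1 ± 14.5 in smooth muscle-like nuclei, each overlapping the next, and at a mean of 0.855 to 7.06 in the other 7 classes. By number of UMIs fibroblast-like nuclei led, with 84.1% ± 7.59 of the total.

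Angpt1 was a gene of fibroblast-like nuclei, at 381 ± 103 CPM, and of cardiomyocyte-like nuclei, at 297 ± 128, and these classes held 49.2% ± 5.85 and 44.7% ± 5.50 of its UMIs. Smooth muscle-like (180 ± 140 CPM), epicardial-like (171 ± 88.7) and endocardial-like nuclei (103 ± 39.6) came next, all with overlapping ranges. Pericyte-like nuclei, the cells closest to capillary endothelium, had 3.90 to 18.6 CPM and endothelial-like nuclei 9.87 to 18.1. Angpt2 was highest in lymphatic-like nuclei at 132 ± 80.4 CPM, followed by smooth muscle-like nuclei at 76.6 ± 19.8. Endothelial-like nuclei had 23.8 ± 5.41 CPM but, being many, the largest mean share of its UMIs, 37.6% ± 7.50.

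**Figure D1:**
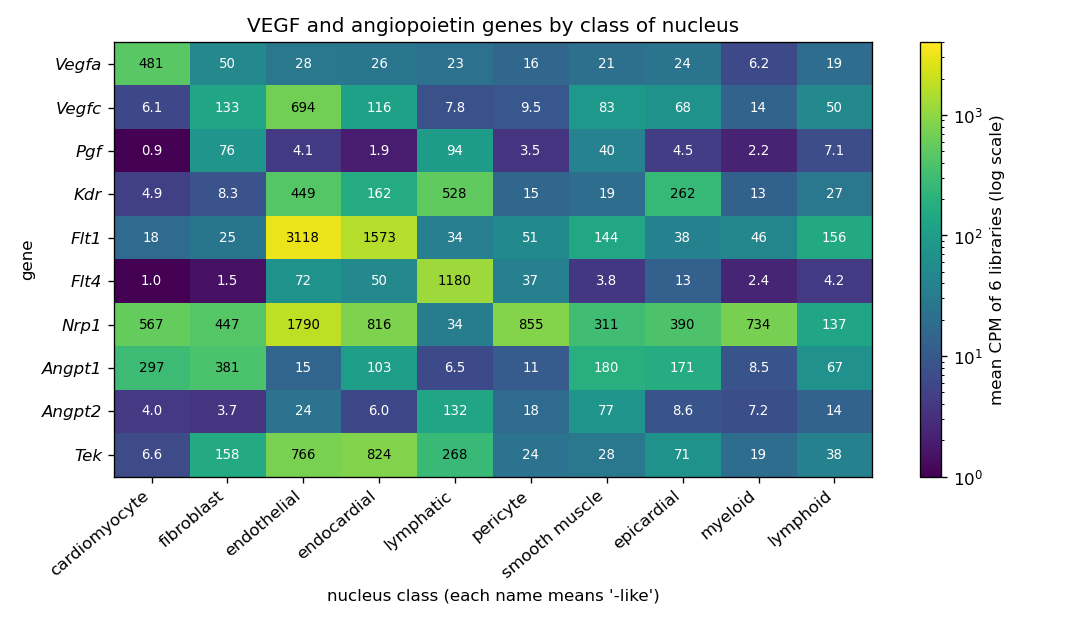
Mean level of each member (rows) in each class of nuclei (columns), in CPM over 6 libraries on a log color scale, with the mean printed in each cell. Vegfa reached 481 CPM in cardiomyocyte-like nuclei, Flt4 1180 in lymphatic-like nuclei and Flt1 3118 in endothelial-like nuclei.

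The receptors separated the 3 endothelial classes. Flt1 stood at 3118 ± 395 CPM in endothelial-like nuclei, 1573 ± 122 in endocardial-like nuclei and 34.3 ± 9.22 in lymphatic-like nuclei. Flt4 showed another order, with 1180 ± 77.7 CPM in lymphatic-like, 71.5 ± 10.3 in endothelial-like and 49.8 ± 14.1 in endocardial-like nuclei. The first class was 16.5-fold above the next for Flt4 and 1.98-fold for Flt1, in both without overlap. With predicted doublets kept the mean of Flt4 in lymphatic-like nuclei was 639 CPM.

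Kdr was shared by lymphatic-like (528 ± 99.6 CPM, or 356 with doublets kept) and endothelial-like nuclei (449 ± 65.9), whose ranges overlapped. Epicardial-like nuclei had 262 ± 72.2 CPM of Kdr, above endocardial-like nuclei at 162 ± 13.8 (their closest libraries stood at 178 CPM in both classes), and every other class had a mean of 4.86 to 26.7. Tek stood at 824 ± 70.3 CPM in endocardial-like and 766 ± 50.3 in endothelial-like nuclei, with overlapping ranges. It was lower in lymphatic-like nuclei (268 ± 30.8) and in fibroblast-like nuclei (158 ± 25.4), without overlap between these steps.

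Nrp1 was the member with the widest distribution. Endothelial-like nuclei led with 1790 ± 142 CPM, and pericyte-like (855 ± 89.2), endocardial-like (816 ± 156), myeloid-like (734 ± 209), cardiomyocyte-like (567 ± 234) and fibroblast-like nuclei (447 ± 60.4) followed with ranges that overlapped their neighbours. Lymphatic-like nuclei were lowest at 33.5 ± 12.5 CPM. The libraries spread most widely in cardiomyocyte-like nuclei, from 310 to 891 CPM.

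Within endothelial-like nuclei the members also differed between the 3 clusters, although no member was used to form them. Cluster 5, led by Col13a1 and Alk, had 4 venous, 3 capillary and 1 arterial of the fixed markers enriched. The arterial-type cluster 9 had 7 arterial and 5 capillary markers enriched, and cluster 1, led by Car4, had 6 capillary and 2 arterial ones. The marker lists thus did not separate the clusters cleanly. Vegfc stood at 1475 ± 235 CPM in cluster 5, at 671 ± 331 in cluster 9 and at 228 ± 53.6 in cluster 1. Kdr was lowest where Vegfc was highest, with 210 ± 31.7 CPM in cluster 5, 543 ± 109 in cluster 9 and 565 ± 63.3 in cluster 1. The ranges of cluster 5 overlapped neither of the other clusters for Kdr, and for Vegfc they overlapped only those of cluster 9. Angpt2 was led by cluster 1 at 35.5 ± 8.74 CPM, against 20.8 ± 9.12 in cluster 9 and 7.01 ± 2.43 in cluster 5. Flt1 (3903 ± 478 CPM) and Tek (862 ± 39.8) were highest in cluster 5, and Nrp1 in cluster 1 (2121 ± 168).

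As a description of likeness, the genes whose log2(CPM + 1) followed each member most closely over the 10 class means were picked among 11346 genes. The closest were Slc24a2 for Vegfa (Pearson r = 0.943), Crispld1 for Vegfc (0.943) and Thbs1 for Pgf (0.937). For the receptors they were Aqp1 for Kdr (0.967), Zfp366 for Flt1 (0.957), Cavin2 for Flt4 (0.924), Gm56862 for Nrp1 (0.756) and Tamalin for Tek (0.965). For the angiopoietins they were Aff2 for Angpt1 (0.914) and Fam53b for Angpt2 (0.913). The next genes were Myo19 and Mfn1 for Vegfa, Mcc and Lims2 for Vegfc, 4930578G10Rik and Nox4 for Pgf, Sypl and Dll1 for Kdr, Car8 and Fabp4 for Flt1, Ecscr and Sgsm1 for Flt4, Kitl and Tctn3 for Nrp1, Syde2 and Kpna6 for Angpt1, Ppp2r5a and Atg4a for Angpt2, and Jcad and 9530082P21Rik for Tek. The classes share the same 6 libraries, and the values rest on 10 points.

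To see which members differed with the mutation and with EMPA, the UMI sums of each library were compared within 7 classes by the quasi-likelihood test in edgeR. A member was called at an adjusted p under 0.05, adjusted over all genes of the class and comparison. Of 10 members, 10 passed the filter on low counts in cardiomyocyte-like, endothelial-like, fibroblast-like and pericyte-like nuclei, 9 in endocardial-like (not Pgf), 8 in lymphatic-like (not Vegfc or Angpt1) and 7 in myeloid-like nuclei (not Vegfa, Pgf or Flt4). That made 64 pairs of a member and a class in each comparison. The R403Q-EMPA libraries serve in both comparisons with EMPA, so their results are not independent of each other.

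Between R403Q-CD and WT-CD, 0 of 64 pairs were called by edgeR, 7 had an unadjusted p under 0.05, and DESeq2 called 1, Nrp1 in cardiomyocyte-like nuclei. Over all genes edgeR called 0.0973% in cardiomyocyte-like, 0.00926% in myeloid-like and 0% in endothelial-like, endocardial-like, lymphatic-like, fibroblast-like and pericyte-like nuclei. Between R403Q-EMPA and R403Q-CD, 2 of 64 pairs were called, both Angpt1, in cardiomyocyte-like nuclei, where 0.257% of all genes were called, and in fibroblast-like nuclei (0.404%). No member was called in this comparison in endothelial-like (0.250%), endocardial-like (0.570%), lymphatic-like (0.0561%), pericyte-like (0.527%) or myeloid-like nuclei (0.0926%), while 16 of 64 pairs had an unadjusted p under 0.05 and DESeq2 called 4. Between R403Q-EMPA and WT-CD, 5 of 64 pairs were called, which were Angpt1 and Nrp1 in cardiomyocyte-like nuclei (4.09% of all genes), Angpt1 in endocardial-like nuclei (1.82%), and Flt1 and Flt4 in pericyte-like nuclei (1.58%). None was called in endothelial-like (0.829%), lymphatic-like (0.0898%), fibroblast-like (1.25%) or myeloid-like nuclei (0.509%), while 21 pairs had an unadjusted p under 0.05 and DESeq2 called 9. At an unadjusted p under 0.05 edgeR put 10.9%, 25.0% and 32.8% of the pairs in the 3 comparisons, in the order given, against 3.07% to 6.74%, 5.41% to 13.3% and 6.86% to 19.5% of all genes over the 7 classes. DESeq2, run without the filter on low counts, called 1.56%, 6.25% and 14.1% of the pairs, against 0% to 0.408%, 0.0270% to 0.993% and 0.0811% to 2.80% of all genes. For DESeq2 the share of pairs was taken over the 64 that passed the edgeR filter. That of all genes was taken over every gene with a count, many of them low, so the DESeq2 shares are not on like terms. The members are 10 chosen genes repeated over classes of the same libraries, so these shares are a description.

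Taken over the members that passed the filter, the median log2 fold change of R403Q-EMPA against WT-CD was 0.27 in cardiomyocyte-like, 0.02 in endothelial-like, 0.17 in endocardial-like, 0.08 in lymphatic-like, -0.22 in fibroblast-like, 0.09 in pericyte-like and -0.48 in myeloid-like nuclei, against -0.01 to 0.01 over all genes. Between R403Q-EMPA and R403Q-CD it was 0.66 in pericyte-like nuclei (0.01 over all genes) and -0.10 to 0.16 in the other 6 classes, and between R403Q-CD and WT-CD it was -0.52 in myeloid-like nuclei (0.00 over all genes) and -0.23 to 0.08 in the others. The pericyte-like median includes Pgf, Angpt1 and Vegfc, with 45, 127 and 127 UMIs over all libraries, and the value of Angpt1 turned with predicted doublets kept. Medians were not repeated under other settings.

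**Figure D2:**
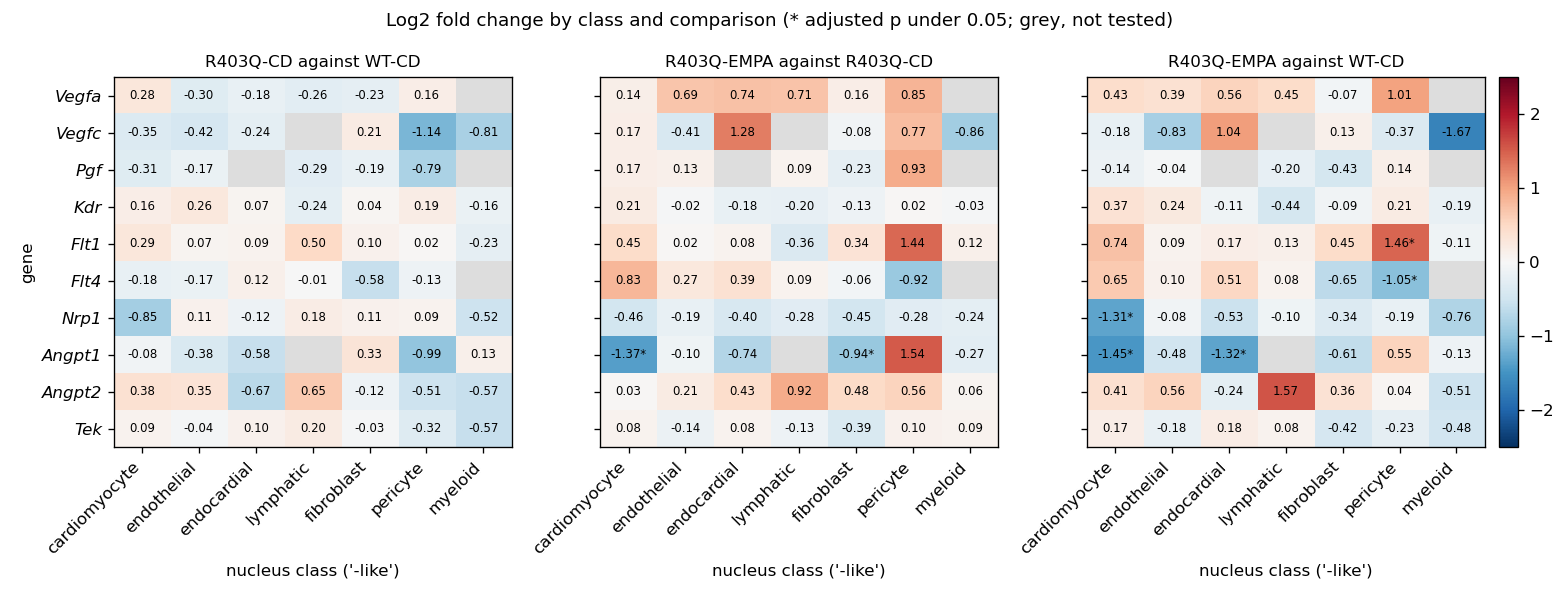
Log2 fold change of each member (rows) in each tested class (columns) for the 3 comparisons, with an asterisk where the adjusted p of edgeR was under 0.05 and grey where the gene did not pass the filter. No member was called between R403Q-CD and WT-CD, 2 pairs were called between R403Q-EMPA and R403Q-CD and 5 between R403Q-EMPA and WT-CD.

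Angpt1, the ligand that activates Tek, was lower in both R403Q-EMPA libraries than in all 4 others in cardiomyocyte-like, fibroblast-like and endocardial-like nuclei. In smooth muscle-like nuclei, another class with much Angpt1, it stood at 130 and 70.4 CPM for WT-CD, 392 and 28.1 for R403Q-CD and 302 and 158 for R403Q-EMPA, from 4 to 57 UMIs, so the groups overlapped and R403Q-EMPA was not lower. In cardiomyocyte-like nuclei its level was 450 and 316 CPM for WT-CD replicates 1 and 2, 407 and 316 for R403Q-CD, and 157 and 134 for R403Q-EMPA. Both R403Q-EMPA libraries lay below all 4 others, and the WT-CD and R403Q-CD libraries overlapped. R403Q-EMPA differed by a log2 fold change of -1.37 (SE 0.196, edgeR adjusted p = 0.0344) against R403Q-CD and -1.45 (SE 0.196, adjusted p = 0.00589) against WT-CD. Between R403Q-CD and WT-CD it was -0.08.

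No cardiomyocyte-like cluster alone showed a larger fold change of Angpt1 than the whole class. In cluster 4 it stood at 470 and 331 CPM for WT-CD, 431 and 393 for R403Q-CD and 320 and 182 for R403Q-EMPA. In cluster 8 it stood at 199 and 178 CPM, 275 and 185, and 117 and 99.8, so this cluster, which was largest in R403Q-EMPA, was low in Angpt1 in every group. In R403Q-EMPA against R403Q-CD the log2 fold change was -0.79 (edgeR adjusted p = 0.225) in cluster 4, -1.10 (0.0415) in cluster 8, where 0.355% of all genes were called, and -1.36 (0.390) in cluster 12. Against WT-CD it was -0.74 (0.149), -0.81 (0.110, with 0.964% of all genes called) and -1.12 (0.431). The direction was the same in all 3 clusters, and how much of the class value comes from the shift between clusters was not tested. Without any 1 of the 2 R403Q-CD and 2 R403Q-EMPA libraries the call against R403Q-CD was lost, at log2 fold changes of -1.56 to -1.16, and without the mitochondrial filter (-1.27, adjusted p = 0.0619), while the call against WT-CD held in every fit that left out 1 library.

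In fibroblast-like nuclei Angpt1 stood at 393 and 386 CPM for WT-CD, 471 and 510 for R403Q-CD, and 245 and 282 for R403Q-EMPA. The 3 groups did not overlap, and R403Q-CD was the highest. For R403Q-EMPA the log2 fold change against R403Q-CD was -0.94 (SE 0.143, edgeR adjusted p = 0.0433), that against WT-CD was -0.61 (SE 0.142, adjusted p = 0.0877), and that of R403Q-CD against WT-CD was 0.33 (SE 0.141, adjusted p = 1.00). Within clusters 0, 2 and 10 the log2 fold change against R403Q-CD was -0.60, -0.51 and -0.82, with adjusted p of 0.0857, 0.320 and 0.369. Against WT-CD it was -0.33, -0.24 and -0.76 in these clusters (edgeR adjusted p = 0.356, 0.687 and 0.272), so in clusters 0 and 2 it was nearer to 0 than in the class. The call was lost without R403Q-EMPA replicate 1 (-0.82, adjusted p = 0.297), without R403Q-CD replicate 1 (-0.99, 0.409) and without R403Q-CD replicate 2 (-0.89, 0.398). It was also lost with predicted doublets kept (0.0523) and without the mitochondrial filter (0.0789).

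In endocardial-like nuclei, which line the ventricle and are rich in Tek, Angpt1 stood at 150 and 147 CPM for WT-CD, 102 and 98.2 for R403Q-CD, and 62.8 and 58.6 for R403Q-EMPA. The groups formed 3 steps without overlap, each with its libraries close together. The log2 fold change was -1.32 (SE 0.153, edgeR adjusted p = 0.0026) for R403Q-EMPA against WT-CD, -0.74 (SE 0.156, adjusted p = 0.0639) against R403Q-CD and -0.58 (SE 0.148, adjusted p = 1.00) for R403Q-CD against WT-CD. The call was lost without R403Q-EMPA replicate 1 (adjusted p = 0.0515), at a log2 fold change of -1.36. Markers of fibroblasts, the class highest in Angpt1, summed to 3787 and 1837 CPM for WT-CD, 2018 and 2809 for R403Q-CD and 2224 and 3026 for R403Q-EMPA in these nuclei, with 0 to 1 of 10 at 0. Cardiomyocyte markers, of the second class in Angpt1, summed to 1752 and 1157, 2609 and 1886, and 2145 and 2706 CPM. The part of these cells' RNA in the Angpt1 result was not tested.

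Pericyte-like nuclei held few Angpt1 molecules, 27 and 35 UMIs for WT-CD, 9 and 17 for R403Q-CD and 17 and 22 for R403Q-EMPA, or 9.47 and 12.0, 3.90 and 6.61, and 13.3 and 18.6 CPM. R403Q-EMPA lay above R403Q-CD there, with a log2 fold change of 1.54 (SE 0.426, edgeR adjusted p = 0.168) that turned to -0.29 when predicted doublets were kept.

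**Figure D3:**
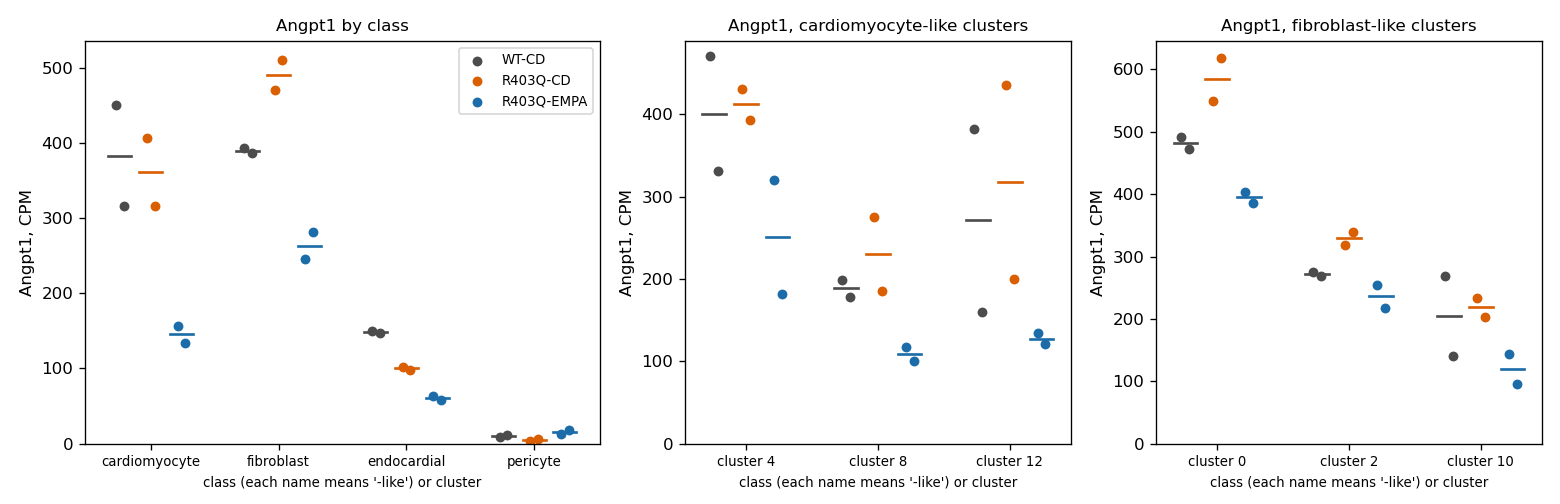
Angpt1 in CPM for each library (points) with the mean of the 2 libraries of a group (horizontal lines), by class on the left and within cardiomyocyte-like and fibroblast-like clusters in the middle and on the right. In cardiomyocyte-like nuclei the R403Q-EMPA libraries stood at 157 and 134 CPM and the 4 others at 316 to 450.

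Nrp1, the co-receptor, fell in cardiomyocyte-like nuclei of R403Q-EMPA against WT-CD, and R403Q-CD stood between them. Its level was 821 and 891 CPM for WT-CD, 493 and 467 for R403Q-CD, and 420 and 310 for R403Q-EMPA. The 3 groups did not overlap, and the widest gap lay between WT-CD and the others. R403Q-EMPA differed from WT-CD by a log2 fold change of -1.31 (SE 0.201, edgeR adjusted p = 0.0100). R403Q-CD differed from WT-CD by -0.85 (SE 0.200, adjusted p = 0.240), a difference that was called by DESeq2 (adjusted p = 0.00409), without the filter on low counts (0.00297) and without the mitochondrial filter (-0.96, 0.0279). R403Q-EMPA against R403Q-CD gave -0.46 (SE 0.199, adjusted p = 0.373), and -0.67 and -0.29 without R403Q-EMPA replicate 1 and replicate 2.

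Within cardiomyocyte-like clusters the low Nrp1 of R403Q libraries was also seen. In cluster 4 the levels were 837 and 902 CPM for WT-CD, 484 and 500 for R403Q-CD and 625 and 340 for R403Q-EMPA. In cluster 8 they were 600 and 771, 512 and 405, and 356 and 279, and in cluster 12 they were 816 and 840, 622 and 445, and 509 and 367. The WT-CD libraries were the highest pair in each cluster. The log2 fold change of R403Q-EMPA against WT-CD was -0.94 (edgeR adjusted p = 0.0812), -1.14 (0.0294) and -0.99 (0.289) in clusters 4, 8 and 12. Without R403Q-EMPA replicate 2 the class value was -1.14 with an adjusted p of 0.0635, and with any other library left out the call held.

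Nrp1 was not called by edgeR elsewhere. In myeloid-like nuclei it stood at 767 and 1126 CPM for WT-CD, 740 and 609 for R403Q-CD, and 590 and 569 for R403Q-EMPA, with a log2 fold change of R403Q-EMPA against WT-CD of -0.76 (SE 0.205, edgeR adjusted p = 0.170). DESeq2 called it (adjusted p = 0.0483), and it ranged from -1.05 to -0.42 with 1 library left out. In endocardial-like nuclei that value was -0.53 (SE 0.171, adjusted p = 0.173), or -0.68 (0.0489) without WT-CD replicate 2 and -0.34 (0.290) without WT-CD replicate 1, and in fibroblast-like nuclei -0.34 (SE 0.136, adjusted p = 0.298). In endothelial-like nuclei, its main site, it was -0.08.

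In pericyte-like nuclei the decoy receptor Flt1 rose and the lymphatic receptor Flt4 fell in R403Q-EMPA against WT-CD, with Flt1 at levels far below those of endothelial-like nuclei. Flt1 stood at 26.7 and 37.3 CPM for WT-CD, 30.8 and 33.4 for R403Q-CD, and 128 and 51.6 for R403Q-EMPA. The R403Q-EMPA libraries were the highest, and replicate 1 was far above replicate 2. Flt1 rose by a log2 fold change of 1.46 (SE 0.308, edgeR adjusted p = 0.0263) against WT-CD. Against R403Q-CD the value was 1.44 (SE 0.313, adjusted p = 0.0563). Without R403Q-EMPA replicate 1 the value against WT-CD was 0.70 (adjusted p = 0.530). The call was also lost without R403Q-CD replicate 1 or R403Q-CD replicate 2, and with only the groups compared in the fit. With predicted doublets kept the value was 0.21 (edgeR adjusted p = 0.832). In the same nuclei the 13 endothelial markers, none at 0 in any library, summed to 484 to 598 CPM in the libraries on control diet and to 719 and 640 in R403Q-EMPA replicates 1 and 2. The 9 endocardial markers, of the second class in Flt1, had 0 to 1 at 0. They summed to 62.0 to 85.2 CPM on control diet and to 122 and 69.4 in R403Q-EMPA replicates 1 and 2. The part of either list in the Flt1 result was not tested.

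Flt4 stood at 48.4 and 44.9 CPM for WT-CD, 43.8 and 40.4 for R403Q-CD, and 25.9 and 19.5 for R403Q-EMPA, from 138 and 131, 101 and 104, and 33 and 23 UMIs. Both R403Q-EMPA libraries lay below all others. The log2 fold change was -1.05 (SE 0.226, edgeR adjusted p = 0.0295) against WT-CD and -0.92 (SE 0.230, adjusted p = 0.116) against R403Q-CD. The 8 lymphatic markers, with 0 to 2 at 0, summed to 26.0 to 56.5 CPM in the libraries on control diet and to 37.7 and 35.6 for R403Q-EMPA, and pericyte markers to 13768 to 15007 on control diet and 12276 and 12333 for R403Q-EMPA. The call was lost without either R403Q-CD and without either R403Q-EMPA library, at log2 fold changes of -1.24 to -0.90, and DESeq2 gave an adjusted p of 0.114. With predicted doublets kept, or with only the groups compared in the fit, Flt4 was not called either. In lymphatic-like nuclei, the main site of Flt4, the libraries ranged from 1101 to 1306 CPM and the log2 fold change against WT-CD was 0.08.

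**Figure D4:**
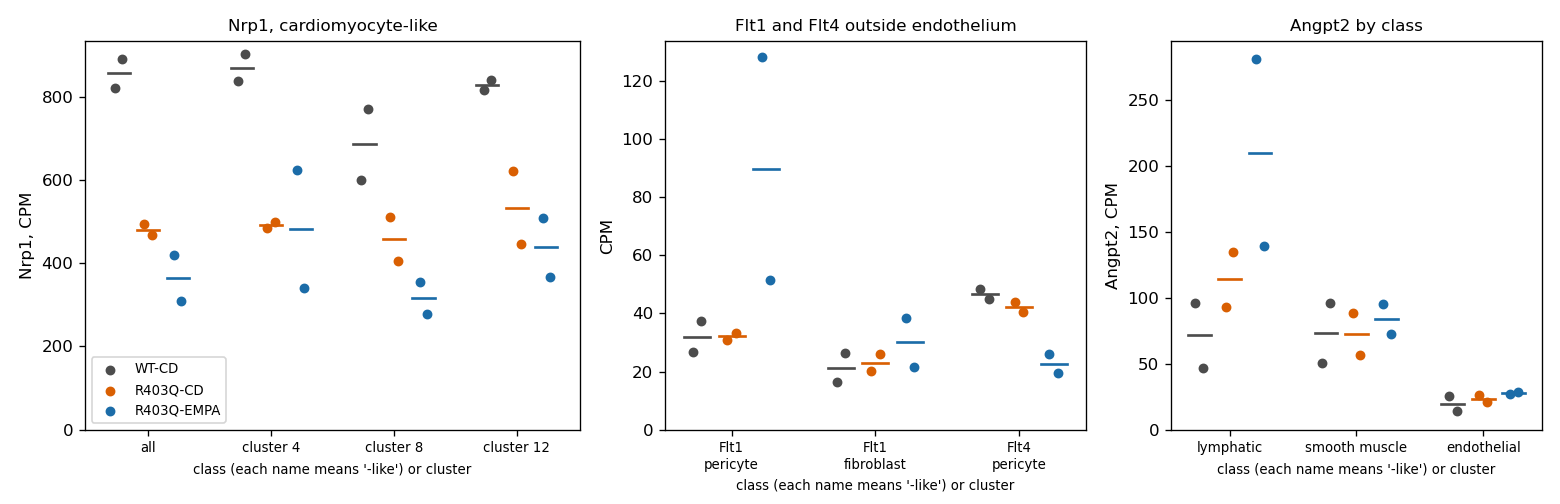
Level in CPM for each library (points) with the mean of the 2 libraries of a group (horizontal lines), for Nrp1 in cardiomyocyte-like nuclei and their clusters, for Flt1 and Flt4 in pericyte-like and Flt1 in fibroblast-like nuclei, and for Angpt2 in 3 classes. Nrp1 in the whole cardiomyocyte-like class fell from 821 and 891 CPM for WT-CD to 420 and 310 for R403Q-EMPA, and Flt1 in pericyte-like nuclei reached 128 CPM in 1 library.

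Vegfc, the ligand of Flt4, had unequal values in the 2 blood-facing endothelia. In endothelial-like nuclei it stood at 942 and 883 CPM for WT-CD, 656 and 666 for R403Q-CD, and 434 and 580 for R403Q-EMPA. The groups formed 3 steps without overlap. The log2 fold change was -0.83 (SE 0.171, edgeR adjusted p = 0.0720) for R403Q-EMPA against WT-CD, -0.41 (SE 0.170, adjusted p = 0.476) for R403Q-EMPA against R403Q-CD and -0.42 (SE 0.170, adjusted p = 1.00) for R403Q-CD against WT-CD. None passed the threshold in edgeR, and DESeq2 gave an adjusted p of 0.000887 for the first. That first value was -0.62 (edgeR adjusted p = 0.453) without R403Q-EMPA replicate 1, and it was called without R403Q-EMPA replicate 2 (-1.08, 0.0416) and without WT-CD replicate 1 (-0.86, 0.0285). The second was -0.20 (0.908) without R403Q-EMPA replicate 1 and -0.65 (0.250) without R403Q-EMPA replicate 2.

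The clusters of endothelial-like nuclei differed in this. In the arterial-type cluster 9 Vegfc stood at 1191 and 839 CPM for WT-CD, 720 and 635 for R403Q-CD, and 291 and 352 for R403Q-EMPA. Fitted alone, a choice made after seeing the data, this cluster gave a log2 fold change of -1.67 (SE 0.201, edgeR adjusted p = 4.64e-05) against WT-CD, where 1.68% of all genes were called, and of -1.13 (SE 0.198, adjusted p = 0.00414) against R403Q-CD, where 0.428% were called. In cluster 5, which had the most Vegfc, the 4 libraries on control diet ranged from 1602 to 1650 CPM and R403Q-EMPA stood at 1075 and 1297, with a log2 fold change against WT-CD of -0.46 (adjusted p = 0.400). In cluster 1 that value was -0.65 (adjusted p = 0.175). Cluster 9 was also the endothelial-like cluster with most Angpt1. Angpt1 stood there at 143 and 87.9 CPM for WT-CD, 36.7 and 29.4 for R403Q-CD and 19.9 and 63.3 for R403Q-EMPA. The R403Q-EMPA libraries, with 851 and 178 nuclei in this cluster, lay on both sides of R403Q-CD. The log2 fold change of Angpt1 was -1.89 (SE 0.382, edgeR adjusted p = 0.00787) for R403Q-EMPA against WT-CD. It was -1.70 (SE 0.379, edgeR adjusted p = 0.0717) for R403Q-CD against WT-CD and -0.19 for R403Q-EMPA against R403Q-CD. Fits of single clusters were not repeated with a library left out. The value of Angpt1 for R403Q-EMPA against WT-CD was -1.15 (edgeR adjusted p = 0.248) in cluster 1, 0.59 (0.769) in cluster 5 and -0.48 (0.507) over the endothelial-like class. The signs differed, but none of these values was called. Angpt1 was also low there, at 3.13 to 12.1 CPM in cluster 1 and 7.45 to 23.0 in cluster 5. Cluster 5 made up 38.9% and 36.9% of endothelial-like nuclei in WT-CD, 25.0% and 24.8% for R403Q-CD and 25.4% and 29.0% for R403Q-EMPA. Over the class R403Q-CD differed from WT-CD by -0.42, a value that was 0.00 in cluster 5, -0.28 in cluster 1 and -0.54 (edgeR adjusted p = 0.517) in cluster 9.

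In endocardial-like nuclei the values of Vegfc were higher with EMPA, though not called, with 74.7 and 100 CPM for WT-CD, 73.7 and 76.0 for R403Q-CD, and 238 and 131 for R403Q-EMPA. The R403Q-EMPA libraries lay above all others, and replicate 1 was the highest. The 9 endocardial markers summed to 10316 to 12278 CPM in the libraries on control diet and to 8176 and 9601 in R403Q-EMPA replicates 1 and 2, and the 13 endothelial markers, of the class with most Vegfc, to 6335 to 7067 and to 6046 and 6825, with no marker of either list at 0 in any library. The part of either in the Vegfc result was not tested. The log2 fold change was 1.28 (SE 0.265, edgeR adjusted p = 0.0591) against R403Q-CD and 1.04 (SE 0.258, adjusted p = 0.0706) against WT-CD, and DESeq2 called both (0.00574 and 0.0359). Without R403Q-EMPA replicate 1 the values were 0.79 and 0.55 (edgeR adjusted p = 0.520 and 0.550).

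**Figure D5:**
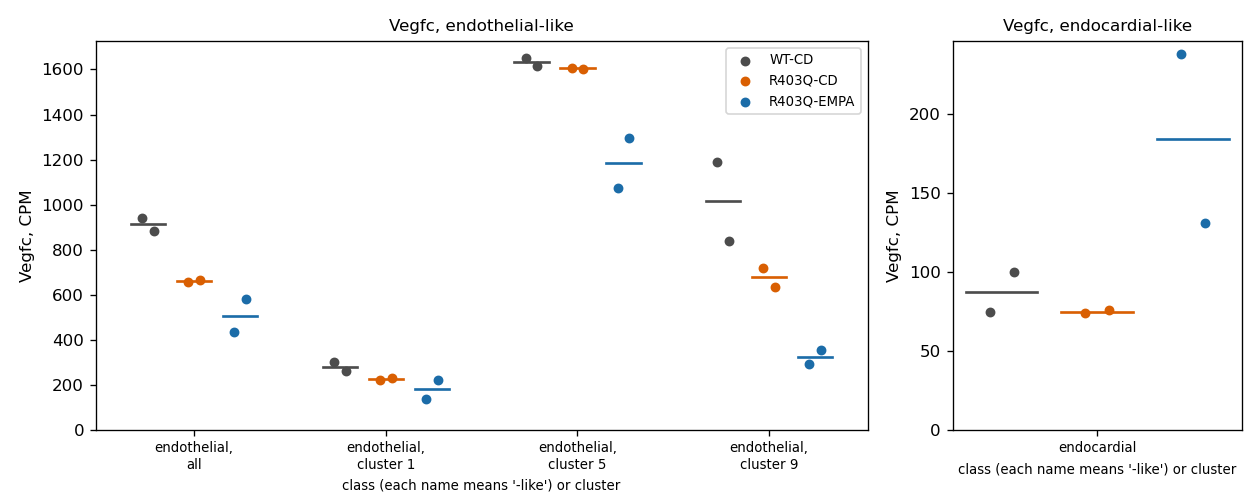
Vegfc in CPM for each library (points) with the mean of the 2 libraries of a group (horizontal lines), in endothelial-like nuclei and their 3 clusters on the left and in endocardial-like nuclei on the right, on separate axes. Endothelial-like nuclei ran from 942 and 883 CPM for WT-CD to 434 and 580 for R403Q-EMPA, and endocardial-like nuclei from 74.7 and 100 to 238 and 131.

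Angpt2, the partial antagonist, had its largest fold change in lymphatic-like nuclei, where it was also most abundant. It stood at 96.1 and 46.7 CPM for WT-CD, 93.1 and 135 for R403Q-CD, and 281 and 139 for R403Q-EMPA. The R403Q-EMPA libraries were the highest, though replicate 2 was close to R403Q-CD replicate 2. Against WT-CD its log2 fold change was 1.57 (SE 0.331, edgeR adjusted p = 0.0908), and DESeq2 gave an adjusted p of 0.0481. Without R403Q-EMPA replicate 1 it was 0.92 (0.998). Against R403Q-CD it was 0.92 (SE 0.320, adjusted p = 0.640), and 0.26 to 1.28 with 1 library left out. In endothelial-like nuclei the value against WT-CD was 0.56 (SE 0.239, adjusted p = 0.368), and it was 0.52, -0.05 and 0.37 in clusters 1, 5 and 9. It was 0.91 (edgeR adjusted p = 0.0457) without WT-CD replicate 1 and 0.21 (0.636) without WT-CD replicate 2.

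Vegfa, the main ligand, stood at 399 and 394 CPM for WT-CD, 477 and 495 for R403Q-CD, and 551 and 567 for R403Q-EMPA in cardiomyocyte-like nuclei. The steps did not overlap, and none of the differences passed the threshold. Its log2 fold change was 0.43 (SE 0.167, edgeR adjusted p = 0.198) for R403Q-EMPA against WT-CD, 0.14 against R403Q-CD and 0.28 for R403Q-CD against WT-CD. In cluster 8 the first value was 0.66 (adjusted p = 0.131), in cluster 4 it was 0.38 (0.364) and in cluster 12 it was 0.34 (0.776). At lower levels the log2 fold change of R403Q-EMPA against R403Q-CD was 0.69 (adjusted p = 0.189) in endothelial-like nuclei (0.81, 0.37 and 0.69 in clusters 1, 5 and 9, and 0.45 over the class without R403Q-EMPA replicate 1), 0.74 (0.224) in endocardial-like nuclei and 0.85 (0.408) in pericyte-like nuclei (0.51 to 1.10 with 1 library left out). Markers of cardiomyocytes, the main source of Vegfa, summed to 1641 to 2648 CPM in the control diet libraries and 2999 and 2707 in R403Q-EMPA replicates 1 and 2 in endothelial-like nuclei, to 1157 to 2609 and to 2145 and 2706 in endocardial-like nuclei, and to 1745 to 2801 and to 3333 and 2991 in pericyte-like nuclei. Their part in these Vegfa values was not tested.

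The receptors of blood endothelium were not called at their main sites in any comparison. In endothelial-like nuclei Flt1 stood at 2465 and 3590 CPM for WT-CD, 2964 and 3248 for R403Q-CD, and 3036 and 3405 for R403Q-EMPA, and the WT-CD libraries enclosed all others. Kdr stood at 472 and 339, 491 and 448, and 528 and 417, and Tek at 834 and 798, 774 and 764, and 686 and 743. Only for Tek did the groups not overlap, at a log2 fold change of -0.18 between R403Q-EMPA and WT-CD. In clusters 1, 5 and 9 that value was -0.20, -0.06 and -0.23 for Tek, 0.11, 0.21 and 0.01 for Flt1, and 0.03, -0.13 and 0.55 for Kdr, of which the last had an edgeR adjusted p of 0.231. Kdr in lymphatic-like nuclei gave -0.44 (SE 0.200, edgeR adjusted p = 0.712) for the same comparison, and Tek in fibroblast-like nuclei -0.42 (SE 0.164, adjusted p = 0.285), with ranges of -0.61 to -0.24 and -0.61 to -0.25 when 1 library was left out. For Pgf the values in fibroblast-like nuclei were 90.9 and 81.9 CPM for WT-CD, 72.5 and 78.3 for R403Q-CD, and 46.9 and 86.0 for R403Q-EMPA, with overlapping groups.

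The pathway list held 28 further genes, among them other ligands, co-receptors, processing enzymes, genes of the oxygen response and VEGF-responsive genes. In cardiomyocyte-like nuclei 19 of 28 passed the filter, and 2 were called in R403Q-EMPA against WT-CD, both lower, where 4.09% of all genes were called. The median log2 fold change of the list in this comparison was 0.06, against 0.00 over all genes. In endothelial-like nuclei 25 passed and 1 was called, higher, in both comparisons with EMPA (0.250% of all genes against R403Q-CD and 0.829% against WT-CD), with medians of -0.04 and -0.02 for the list against 0.00 and 0.01 over all genes. In fibroblast-like nuclei 24 passed and 1 was called, lower, in both (0.404% and 1.25% of all genes), with medians of -0.02 and 0.06 for the list against 0.00. Between R403Q-CD and WT-CD edgeR and DESeq2 called 0 genes of the list in any class, with 0 to 3 per class at an unadjusted p under 0.05. In pericyte-like (22 tested), endocardial-like (21), lymphatic-like (18) and myeloid-like nuclei (17) edgeR called 0 in the comparisons with EMPA, with 1 to 4 at an unadjusted p under 0.05, and DESeq2 called 1, Ptprb, in endocardial-like nuclei against WT-CD. Against R403Q-CD and WT-CD, DESeq2 called 1 and 3 genes of the list in cardiomyocyte-like nuclei, 1 and 2 in endothelial-like nuclei and 2 and 3 in fibroblast-like nuclei. Beyond the genes called by edgeR these were Nr4a1 (lower) and Rcan1 (higher) in cardiomyocyte-like nuclei, Esm1 in endothelial-like nuclei, and Thbs1 and Egr3 in fibroblast-like nuclei, all 3 of these higher.

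Ccbe1, a secreted protein needed for the processing of VEGF-C, was the called gene in fibroblast-like nuclei. It stood at 562 and 582 CPM for WT-CD, 569 and 640 for R403Q-CD, and 195 and 300 for R403Q-EMPA. Both R403Q-EMPA libraries lay well below the rest, with log2 fold changes of -1.33 (SE 0.213, edgeR adjusted p = 0.0478) against R403Q-CD and -1.25 (SE 0.213, adjusted p = 0.0344) against WT-CD. Within clusters 0, 2 and 10 the values against WT-CD were -0.91, -0.94 and -1.77, so the direction was the same in each. The first call was lost without R403Q-EMPA replicate 1 or either R403Q-CD library. The second was lost without R403Q-EMPA replicate 1, WT-CD replicate 2 or either R403Q-CD library, at -1.25 to -0.96. Both were lost without the mitochondrial filter (0.0789 and 0.0506), and the first with predicted doublets kept (0.0529).

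In cardiomyocyte-like nuclei Ccbe1 stood at 21.1 and 41.6 CPM for WT-CD, 17.8 and 20.7 for R403Q-CD, and 10.0 and 13.5 for R403Q-EMPA, with a log2 fold change against WT-CD of -1.51 (SE 0.334, edgeR adjusted p = 0.0370). WT-CD replicate 2 was far above the other libraries, and without it the value was -0.80 (adjusted p = 0.0911). Without either R403Q-CD or either R403Q-EMPA library the call was lost too, at an adjusted p of 0.0567 to 0.235. In clusters 4, 8 and 12 alone the log2 fold change of Ccbe1 was -0.63, -2.12 and -1.25, with edgeR adjusted p of 0.397, 0.0435 and 0.629. Epas1, which encodes a transcription factor stabilised when oxygen is low, stood at 62.4 and 73.7, 50.1 and 59.2, and 46.0 and 40.8 CPM, with a log2 fold change against WT-CD of -0.73 (SE 0.175, adjusted p = 0.0492). In clusters 4, 8 and 12 alone that value of Epas1 was -0.42, -0.76 and -0.54, with edgeR adjusted p of 0.345, 0.271 and 0.714. The call of Epas1 was lost in 5 of 6 fits that left out 1 library (all but WT-CD replicate 1), and without the mitochondrial filter its value was -0.11 (0.806).

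Thbs1, an inhibitor of vessel growth, was the called gene in endothelial-like nuclei, at low counts. It stood at 1.71 and 1.21 CPM for WT-CD, 1.33 and 1.80 for R403Q-CD, and 10.2 and 7.31 for R403Q-EMPA, from 7 and 9, 9 and 13, and 94 and 21 UMIs. The UMIs of R403Q-EMPA replicate 1 were spread over clusters 1, 5 and 9, at 30, 33 and 31 UMIs or 7.45, 13.3 and 11.4 CPM, while those of replicate 2 were 1, 3 and 17 UMIs or 0.626, 3.29 and 46.8 CPM. The libraries on control diet had 0.239 to 2.26 CPM in cluster 1, 0.327 to 2.87 in cluster 5 and 0 to 9.51 in cluster 9, so replicate 2 lay within their range in cluster 1 and most of its UMIs were in the arterial-type cluster. Thbs1 was more abundant in fibroblast-like nuclei, at 23.8 to 30.1 CPM on control diet and 81.7 and 38.8 for R403Q-EMPA replicates 1 and 2, and in lymphatic-like nuclei, at 23.4 to 63.2 and 91.1 and 56.8. In endocardial-like nuclei it stood at 1.81 to 3.23 CPM on control diet (3 to 8 UMIs), at 7.18 in R403Q-EMPA replicate 2 (12 UMIs) and higher still in replicate 1 (28 UMIs), and in myeloid-like nuclei at 0 to 1.92 and 6.22 and 0, so replicate 1 was the highest library in all 4 of these classes. In endothelial-like nuclei the 10 fibroblast markers summed to 374 to 1081 CPM on control diet and 484 and 502 for R403Q-EMPA, with none at 0, and the 8 lymphatic markers to 104 to 148 and 116 and 110, with 0 to 1 at 0. The part of RNA from other cells in the Thbs1 result was not tested. In endothelial-like nuclei Thbs1 rose by log2 fold changes of 2.47 (SE 0.369, edgeR adjusted p = 0.0411) against R403Q-CD and 2.66 (SE 0.391, adjusted p = 0.0225) against WT-CD. Without R403Q-EMPA replicate 1 these were 2.19 (0.476) and 2.38 (0.293). The first call was also lost without either R403Q-CD library (0.422 and 0.314) and without the mitochondrial filter (0.0848), and the second without WT-CD replicate 2 (0.0530).

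Other genes named by the rule were not called by edgeR. Esm1, a gene of endothelium stimulated by VEGF, stood at 2.68 and 0.540 CPM for WT-CD, 1.47 and 2.08 for R403Q-CD, and 17.1 and 3.13 for R403Q-EMPA in endothelial-like nuclei, and only replicate 1 of R403Q-EMPA was far from the rest. Its log2 fold change against WT-CD was 3.03 (SE 0.780, edgeR adjusted p = 0.134) and 1.19 without that library, and DESeq2 called it (adjusted p = 0.0274). Egr3 in fibroblast-like nuclei gave 1.51 (SE 0.319, adjusted p = 0.0658) for the same comparison, was called by DESeq2 (0.00331) and ranged from 0.89 to 1.91 with 1 library left out. Nrp2, the relative of Nrp1, in pericyte-like nuclei gave -0.60 (SE 0.142, adjusted p = 0.0933) for R403Q-EMPA against R403Q-CD. For R403Q-CD against WT-CD, Vegfd in cardiomyocyte-like nuclei gave 1.00 (SE 0.228, adjusted p = 0.213) and Svep1 in pericyte-like nuclei -0.96 (SE 0.349, adjusted p = 0.999), which ranged from -1.40 to -0.32 with 1 library left out.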

How the data were processed

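Nuclei were prepared by the authors from fresh frozen tissue of the left ventricle, and droplet libraries were sequenced. The authors deposited, for each of 6 libraries, a filtered matrix of raw UMI counts per gene and barcode. The submitters' processing notes name Cell Ranger 8.0.1 and build GRCm39, and whether intronic reads were counted is not given in the sources used here. Groups were taken from the labels, which name no batch, and replicates were numbered in order of deposit.

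Barcodes with at least 500 UMIs, at least 300 genes and at most 5% mitochondrial UMIs were kept, and nuclei that scrublet (scanpy 1.11.5) predicted as doublets, 3.68% to 6.45% of a library, were left out. After scaling each nucleus to 10000 counts and a log transform, the libraries were clustered jointly by the Leiden method (resolution 1, 15 neighbours, 30 principal components from 2000 variable genes). A cluster took the class with most markers enriched at least 2-fold over all other nuclei and seen in at least 10% of nuclei, with at least 3 such markers, and 1 cluster of 33 nuclei had none. Sums of UMIs for each class in each library went through the filterByExpr filter and TMM scaling, and edgeR 4.0.16 (R 4.3.3) fitted a quasi-likelihood model to the 6 libraries at once, leaving 3 residual degrees of freedom. Benjamini-Hochberg adjustment was made within each class and comparison. The SE was taken from the log2 fold change and its F value. An exact permutation of 2 against 2 libraries cannot reach 0.05, so no such test was used. CPM are the UMIs of a gene per 1000000 UMIs of the class and library. Both tests across genes were tested on simulated data, where most changed genes were recovered and the share of false calls was above the threshold, clearly so in the cardiomyocyte-like and fibroblast-like classes, so calls close to it are less firm.

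The alternatives were DESeq2 1.42.0, relative log expression scaling, no filter on low counts, no mitochondrial filter, doublets kept, members allowed in the clustering, resolution 2, only the 2 groups compared, and each library left out. Fits of single clusters and the tests between classes were added after seeing the data. All members were named, with pathway genes called in any class, the 2 with the smallest p in each of 4 classes, and the 3 genes most like each member among genes of at least 20 CPM in a class. The members and lists were chosen with earlier results of these data known. Promoters came from RefSeq on GRCm38.p6, where 8 of 10 members had an entry.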

Additional observations from a re-analysis of the deposited data

Results flagged for a closer look

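The log2 fold changes of Vegfc and Angpt1 had opposite signs in some classes of nuclei, with both libraries of each group on opposite sides. Within single classes Vegfc was not called by edgeR in the endocardial-like, endothelial-like or myeloid-like class, and Angpt1 was not called in the pericyte-like class. The difference between 2 classes was then tested with edgeR over both classes, with the library as a block and adjustment over all genes, for pairs picked after their values were seen. For Vegfc the log2 change was higher in endocardial-like than in endothelial-like nuclei by 1.70 (SE 0.326, adjusted p = 0.0416) for R403Q-EMPA against R403Q-CD and by 1.90 (SE 0.317, adjusted p = 0.0137) for R403Q-EMPA against WT-CD. It was higher in endocardial-like than in myeloid-like nuclei by 2.87 (SE 0.483, adjusted p = 0.0133) for R403Q-EMPA against WT-CD, where the myeloid-like nuclei held 2 to 40 Vegfc UMIs per library.

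For Angpt1 in R403Q-EMPA against R403Q-CD the log2 change was higher in pericyte-like nuclei than in cardiomyocyte-like nuclei by 2.91 (SE 0.449, adjusted p = 0.0186), than in endocardial-like nuclei by 2.25 (SE 0.396, adjusted p = 0.0130) and than in fibroblast-like nuclei by 2.47 (SE 0.345, adjusted p = 0.00165). The pericyte-like side rests on 9 to 22 UMIs per library in these groups and turned with doublets kept. For R403Q-CD against WT-CD the change of Angpt1 was higher in fibroblast-like than in endocardial-like nuclei by 0.92 (SE 0.152, adjusted p = 0.202) and than in pericyte-like nuclei by 1.33 (SE 0.309, adjusted p = 0.368), and neither passed the threshold. These tests were not repeated with a library left out.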

How the results depend on the processing

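The counts of members called by edgeR depended on the processing. Fold changes were followed only for members at an unadjusted p under 0.05 and for the pathway genes called or named. They were picked for a small p in the main fit, so how often they kept direction cannot test direction. Of 848 values of 55 fold changes under the alternatives, 709 kept direction and side of the threshold, 74 lost the call, 62 gained it and 3 turned, which were Vegfc in endothelial-like nuclei between R403Q-CD and WT-CD (0.00) and Angpt2 there between R403Q-EMPA and WT-CD (-0.05), both in cluster 5 alone, and Angpt1 in pericyte-like nuclei between R403Q-EMPA and R403Q-CD with doublets kept (-0.29). For R403Q-CD against WT-CD the count in cardiomyocyte-like nuclei went from 0 to 1 with DESeq2, without the low-count filter and without the mitochondrial filter. For R403Q-EMPA against R403Q-CD it went to 0 without the mitochondrial filter in cardiomyocyte-like and fibroblast-like nuclei, and in the latter with doublets kept. In that comparison it went to 1 in endothelial-like nuclei without the low-count filter, to 1 (DESeq2), 2 (no low-count filter) and 2 (only the groups compared) in endocardial-like nuclei, and to 1 (DESeq2), 3 (no low-count filter), 1 (no mitochondrial filter) and 1 (only the groups compared) in pericyte-like nuclei. For R403Q-EMPA against WT-CD, DESeq2 and no low-count filter both gave 1 in endothelial-like, lymphatic-like and fibroblast-like nuclei and 2 in endocardial-like nuclei, and 1 and 2 in myeloid-like nuclei. In pericyte-like nuclei it went to 1 with DESeq2 and 0 with doublets kept or only the groups compared. The cause was not tested. With 1 library left out the counts stayed at 0 or ranged from 0 to 1 or 0 to 2, except 1 to 2 in cardiomyocyte-like and 0 to 3 in endocardial-like nuclei for R403Q-EMPA against WT-CD, and where 1 library remained in a group it was assumed to vary like the others. Scaling by relative log expression, members in the clustering and resolution 2 moved no count of members. With doublets kept the Vegfc share of endothelial-like nuclei was 66.3%, the Flt1 share 75.3%, and lymphatic-like nuclei had 356 CPM of Kdr and 639 of Flt4. Over all genes the number called moved by more than 1.5 times in every class, for example in R403Q-EMPA against WT-CD from 589 in cardiomyocyte-like nuclei to between 134 and 1438 and from 116 in endothelial-like nuclei to between 15 and 802, and in R403Q-EMPA against R403Q-CD from 61 in fibroblast-like nuclei to between 0 and 1021. Depth limits the smallest classes and the genes of under 30 UMIs per library. No paired analysis was possible because the replicate numbers were given in order of deposit and pair no libraries.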
